A study of Mus musculus with 6 samples.

Results

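Mitochondrial fatty acid β-oxidation was followed through 10 genes of its core path in inguinal white adipose tissue (IngWAT): *Cpt1a*, *Cpt2*, *Slc25a20*, *Acadvl*, *Acadl*, *Acadm*, *Acads*, *Hadh*, *Hadha* and *Hadhb*. They were chosen by name, as the enzymes and the carrier of that path, and are 10 of the 46517 genes in the count files. The RNA-seq compared *Hdac3* floxed mice with mice lacking *Hdac3* in adipose tissue (H3atKO), with 3 sequenced samples per genotype. HDAC3 is a histone deacetylase that works in repressor complexes with nuclear receptors. Both genotypes carried the floxed *Hdac3* alleles and were C57Bl6 mice of 5 to 9 months on chow diet. H3atKO mice also carried the B6:FVB-Tg(Adipoq-cre)1Evdr/J transgene, in which the promoter of the adipocyte gene *Adipoq* drives Cre, so that the other cells of the depot were not targeted. Each sample was a pool of RNA from 2 or 3 mice, and the p-values below therefore measure the spread between pools.

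Long-chain fatty acids enter the mitochondrial matrix as carnitine esters. CPT1 at the outer membrane makes the acylcarnitine, the carrier encoded by *Slc25a20* takes it across the inner membrane, and CPT2 returns the acyl group to coenzyme A. In the matrix each turn of β-oxidation begins with an acyl-CoA dehydrogenase, chosen by chain length (very long for *Acadvl*, long for *Acadl*, medium for *Acadm*, short for *Acads*). The trifunctional protein, built from *Hadha* and *Hadhb*, carries out the remaining steps for long chains, and the dehydrogenase encoded by *Hadh* serves short and medium chains. White adipocytes store fat and release fatty acids, whereas brown and beige adipocytes burn them and hold more mitochondria.

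The pools had between 23865507 and 35200685 counts on genes. At this depth 3 counts stood for 0.0852 to 0.126 cpm by library size alone. The levels below are in cpm after TMM scaling, which multiplied the library sizes by 0.663 to 1.37 and shifts this floor accordingly. *Hdac3* fell from 71.6 ± 7.61 to 20.4 ± 7.28 cpm (SD, n = 3; log2 fold change −1.83 ± 0.32, SE; limma adjusted p = 0.0214). Transcripts of the mitochondrial genome took 6.92% to 12.9% of the counts in floxed and 26.9% to 35.3% in H3atKO pools. Adipocyte markers (*Adipoq*, *Fabp4*, *Plin1* and 4 others) summed to 13540 to 31784 cpm in floxed and 15553 to 26755 cpm in H3atKO pools, so the tissue matched its label in every pool. The pools also differed in GC content, as Spearman's rho across 14922 genes between transcript GC content and the expression in a pool relative to the mean of all pools was 0.80, 0.62 and 0.10 in the floxed and −0.43, −0.50 and −0.71 in the H3atKO pools. The effects of GC content and of genotype cannot be told apart, so values after a correction for GC content are given beside the main ones.

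Most of the 10 genes were upregulated in H3atKO IngWAT. *Hadhb* rose 8.13-fold, *Acadl* 5.34-fold and *Slc25a20* 3.30-fold, and *Hadha*, *Cpt2*, *Acadm* and *Hadh* rose between 2.11-fold and 2.80-fold. *Cpt1a*, a gene for the entry step, fell to 0.451 of its floxed level, and *Acadvl* and *Acads* did not pass the test. All 10 genes passed the filter of at least 1 cpm in at least 1 pool. Of the 14967 genes tested with limma voom after TMM scaling, which adjusts library sizes for differences in composition, 9.42% were called higher and 7.07% lower at an adjusted p under 0.05 (Benjamini-Hochberg). Among the 10 genes 7 were called higher and 1 lower. The median log2 fold change of the 10 genes was 1.32, beside −0.09 over all genes tested. In bulk tissue, fewer cells of a type and less RNA per cell cannot be told apart.

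Every H3atKO pool lay above every floxed pool for 7 of the genes and below for 1, where 23.1% and 28.6% of all genes tested did so. Together the 10 genes took 0.272%, 0.253% and 0.237% of the counts outside the mitochondrial genome in the floxed pools and 0.663%, 0.639% and 0.538% in the H3atKO pools. The share was thus higher in each H3atKO pool, without any scaling between libraries.

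The calls depended on single pools. Without floxed replicate 3 the counts were 7 higher and 2 lower, with *Acads* added, where 18.5% and 25.9% of all genes were called. *Slc25a20*, *Acadl* and *Hadhb* were the 3 genes still called without floxed replicate 1, H3atKO replicate 1 or H3atKO replicate 2, and *Acadl* and *Hadhb* were the 2 left without H3atKO replicate 3. In these 4 fits 0.584% to 2.64% of all genes were called higher. Without floxed replicate 2 none of the 10 was called by limma, in a fit that called 1 gene higher and 0 lower of the whole table while 1926 higher and 2407 lower had an unadjusted p under 0.05. In each of these 6 fits the 8 called genes kept their direction and an unadjusted p under 0.05.

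**Figure D1:**
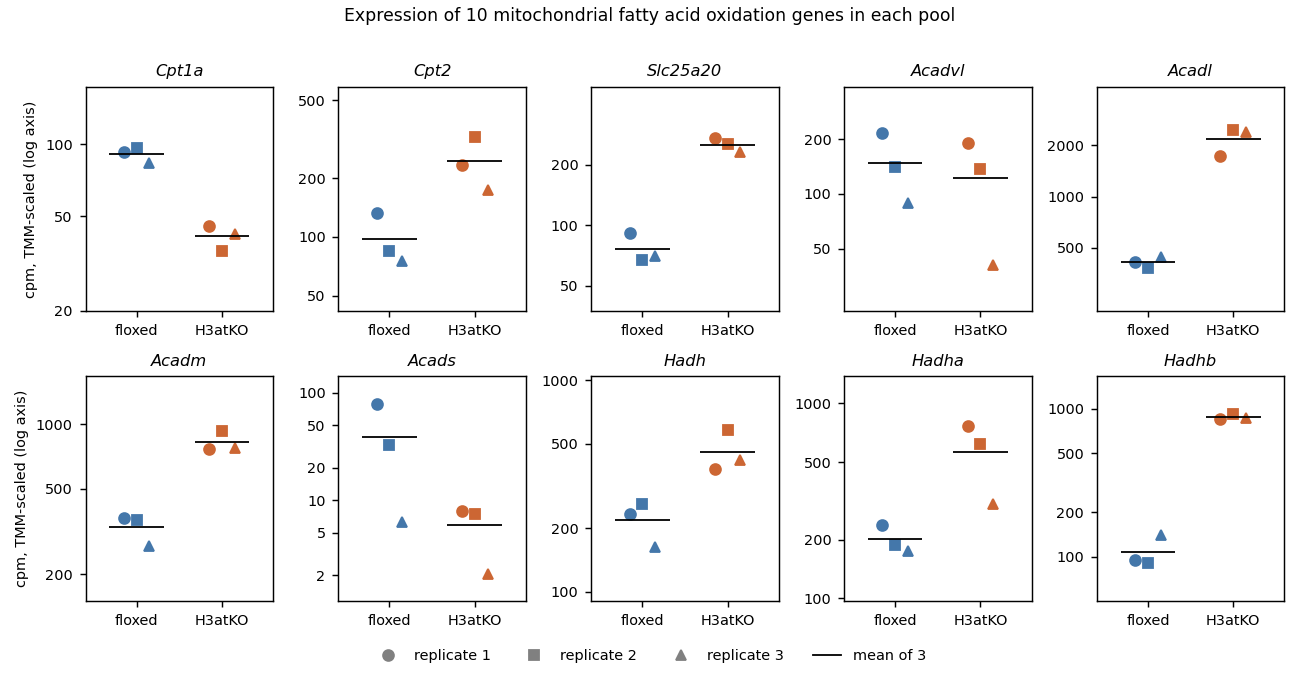
TMM-scaled expression in cpm (log axis, its range set per gene) of the 10 genes in the 3 floxed and 3 H3atKO pools. Points are pools, their shape gives the replicate number, and lines are means of 3. The genotypes do not overlap except for *Acadvl* and *Acads*, and *Cpt1a* is the gene that lies lower in every H3atKO pool.

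The carnitine shuttle moved in opposite directions. *Cpt1a* (ENSMUSG00000024900, chromosome 19, 3322334 to 3385733, plus strand, GRCm38), the liver-type CPT1 isoform, was at 92.9, 96.9 and 83.8 cpm in the floxed and 45.5, 35.8 and 42.1 cpm in the H3atKO pools. All H3atKO pools were lower and the groups did not overlap (91.2 ± 6.71 against 41.2 ± 4.94 cpm, SD, n = 3). The log2 fold change was −1.15 ± 0.23 (SE; limma adjusted p = 0.0267). After GC correction it was −0.64 with an adjusted p of 0.0739, and over all alternatives run the adjusted p ranged from 0.000266 to 0.124.

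*Slc25a20* (ENSMUSG00000032602, chromosome 9, 108662088 to 108684641, plus strand), the carnitine-acylcarnitine carrier, was at 91.9, 67.0 and 70.3 cpm in the floxed and 271, 253 and 231 cpm in the H3atKO pools. The H3atKO pools lay close together and far above the floxed pools (76.4 ± 13.5 against 252 ± 20.1 cpm). Its log2 fold change was 1.73 ± 0.23 (limma adjusted p = 0.0118), and it was 1.65 after GC correction. Of its 50-base stretches 9.96% also occur in other annotated genes.

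*Cpt2* (ENSMUSG00000028607, chromosome 4, 107903981 to 107923610, minus strand) was at 133, 84.6 and 74.99 cpm in the floxed and 232, 326 and 174 cpm in the H3atKO pools. The pools spread more than for the carrier, and the lowest H3atKO pool still exceeded the highest floxed pool (97.5 ± 31.0 against 244 ± 76.6 cpm). The log2 fold change was 1.32 ± 0.33 (limma adjusted p = 0.0405) and 2.11 after GC correction. The carrier and *Cpt2* were therefore higher in the same pools in which *Cpt1a* was lower. *Cpt1b*, another gene for the outer membrane step, is treated below.

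The acyl-CoA dehydrogenases divided by gene. *Acadl* (ENSMUSG00000026003, chromosome 1, 66830839 to 66863277, minus strand), the long-chain enzyme, was at 412, 381 and 440 cpm in the floxed and 1743, 2458 and 2388 cpm in the H3atKO pools. The genotypes were separated by more than their spread (411 ± 29.5 against 2196 ± 394 cpm), with a log2 fold change of 2.41 ± 0.24 (limma adjusted p = 0.00793) and 1.89 after GC correction.

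*Acadm* (ENSMUSG00000062908, chromosome 3, 153922357 to 153944632, minus strand), the medium-chain enzyme, was at 364, 360 and 270 cpm in the floxed and 765, 928 and 776 cpm in the H3atKO pools. All H3atKO pools were higher (331 ± 53.0 against 823 ± 91.1 cpm). Its log2 fold change was 1.32 ± 0.24 (limma adjusted p = 0.0225), and 1.21 after GC correction. Of its 50-base stretches 4.10% are shared with the gene model *Gm5131*, so a part of its reads could have been left uncounted as not unique.

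*Acadvl* (ENSMUSG00000018574, chromosome 11, 70010183 to 70015411, minus strand), the very-long-chain enzyme, was at 216, 141 and 89.2 cpm in the floxed and 191, 136 and 40.7 cpm in the H3atKO pools. The groups overlapped, with a wide spread in both (149 ± 63.6 against 123 ± 76.0 cpm). The log2 fold change was −0.44 ± 0.59 (limma adjusted p = 0.583). It was 0.56 after GC correction, where it did not pass either. Exons of *Dvl2* on the opposite strand overlap its exons. The libraries were stranded, but whether the counting used the strand is not given in the sources used here, so a part of these reads could belong to *Dvl2*.

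*Acads* (ENSMUSG00000029545, chromosome 5, 115110299 to 115119346, minus strand), the short-chain enzyme, was at 78.9, 32.4 and 6.29 cpm in the floxed and 7.94, 7.49 and 2.08 cpm in the H3atKO pools. Floxed replicate 3 fell below 2 of the H3atKO pools, and the floxed group varied by almost its own mean (39.2 ± 36.8 against 5.84 ± 3.26 cpm). The log2 fold change was −2.30 ± 1.17 (limma adjusted p = 0.164). With the replicate number as a block it was −2.59 (adjusted p = 0.00408), without floxed replicate 3 it was −3.28 and called, and after GC correction it was −0.04. The adjusted p ranged from 0.00408 to 0.989 over all alternatives run.

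Both subunits of the trifunctional protein and *Hadh* rose. *Hadha* (ENSMUSG00000025745, chromosome 5, 30118304 to 30155162, minus strand), the hydratase and dehydrogenase subunit of the trifunctional protein, was at 239, 188 and 174 cpm in the floxed and 765, 616 and 303 cpm in the H3atKO pools. H3atKO replicate 3 was the lowest of its group and still above every floxed pool (201 ± 34.1 against 562 ± 236 cpm). The log2 fold change was 1.39 ± 0.37 (limma adjusted p = 0.0448) and 1.90 after GC correction.

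*Hadhb* (ENSMUSG00000059447, chromosome 5, 30155248 to 30184593, plus strand), the thiolase subunit, was at 94.8, 90.8 and 141 cpm in the floxed and 860, 921 and 871 cpm in the H3atKO pools. The 3 H3atKO pools were nearly equal, and each exceeded the highest floxed pool by more than the whole range of either group (109 ± 27.7 against 884 ± 32.2 cpm). Its log2 fold change of 3.05 ± 0.25 was the largest of the 10 genes in the limma fit (adjusted p = 0.00745). After GC correction it was 1.93, beside 2.11 for *Cpt2*, and by the GC content of the longest coding transcript 2.49, beside 2.01. Its longest transcript has a GC content of 39.1%, the lowest of the 10, and 4.42% of its 50-base stretches also occur in other annotated genes.

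*Hadh* (ENSMUSG00000027984, chromosome 3, 131233419 to 131272101, minus strand), the short-chain 3-hydroxyacyl-CoA dehydrogenase, was at 234, 259 and 163 cpm in the floxed and 380.0, 580 and 422 cpm in the H3atKO pools. The groups did not overlap (219 ± 49.9 against 461 ± 105 cpm). Its log2 fold change of 1.08 ± 0.28 was the smallest of the 7 that rose (limma adjusted p = 0.0437), and it was 1.52 after GC correction.

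*Hadha* and *Hadhb* stand head to head, and the interval between their annotated ends is 85 bases long. It is shown because both subunits of one protein are read outward from it. On the plus strand of GRCm38.p6 (RefSeq), chr5:30155163-30155247, it reads as follows, with 2 GC boxes (GGGCGG, looked for on both strands) in capitals.
Hadha-Hadhb: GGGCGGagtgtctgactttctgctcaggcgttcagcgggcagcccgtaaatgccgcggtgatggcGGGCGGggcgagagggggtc
The GC box occurred in the promoter window of 8 of the 10 genes (all but *Acadm* and *Acadvl*) and in 35.7% of the 32851 windows in the RefSeq table. A window runs from 250 bases before to 50 bases after the start.

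PPAR and ERR nuclear receptors, known regulators of this pathway, bind the half-site AGGTCA alone or in pairs. In the same windows, on either strand, the half-site was found for *Acadm*, *Acadvl* and *Cpt1a*, 3 of the 10 genes, and in 16.3% of all windows. The 30 bases around each match are shown, on the gene's own strand, because the 3 genes differ in response (one rose, one was not called and one fell). Capitals mark the half-site or its reverse complement. The stretches are chr3:153944864-153944893 (minus strand), chr11:70015498-70015527 (minus strand) and chr19:3323195-3323224 (plus strand). The marked half-sites in them begin 249, 87 and 94 bases before the RefSeq start.
Acadm: gTGACCTtcgggctccggtgacactgggca
Acadvl: atggatcaccctAGGTCAggtagaatacag
Cpt1a: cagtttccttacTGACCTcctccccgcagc
The direct repeat of the half-site with a spacer of 1 base and the extended ERR motif TCAAGGTCA, both of which contain the half-site, were in 0 of the 10 windows, and in 0.0396% and 0.423% of all windows. A match is a description of the letters in these windows only.

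The 7 rises held under most ways of fitting all 6 pools. edgeR's quasi-likelihood test called 7 of the 10 higher and 1 lower, where 12.8% and 18.4% of all genes were called. DESeq2 called 7 higher and 2 lower, where 19.6% and 23.2% were. With the replicate number as a block limma called 7 higher and 2 lower (*Cpt1a* and *Acads*), but 24.8% of all genes were called higher and 28.7% lower. Scaling by library sizes alone lowered the median of all genes to −0.94 and that of the 10 genes to 0.47. *Slc25a20*, *Acadl* and *Hadhb* were still called higher on that scale, where 2.04% of all genes were, and *Cpt1a* lower, where 37.9% were. The difference between the medians, 1.41, is left almost as it was by any such scaling.

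**Figure D2:**
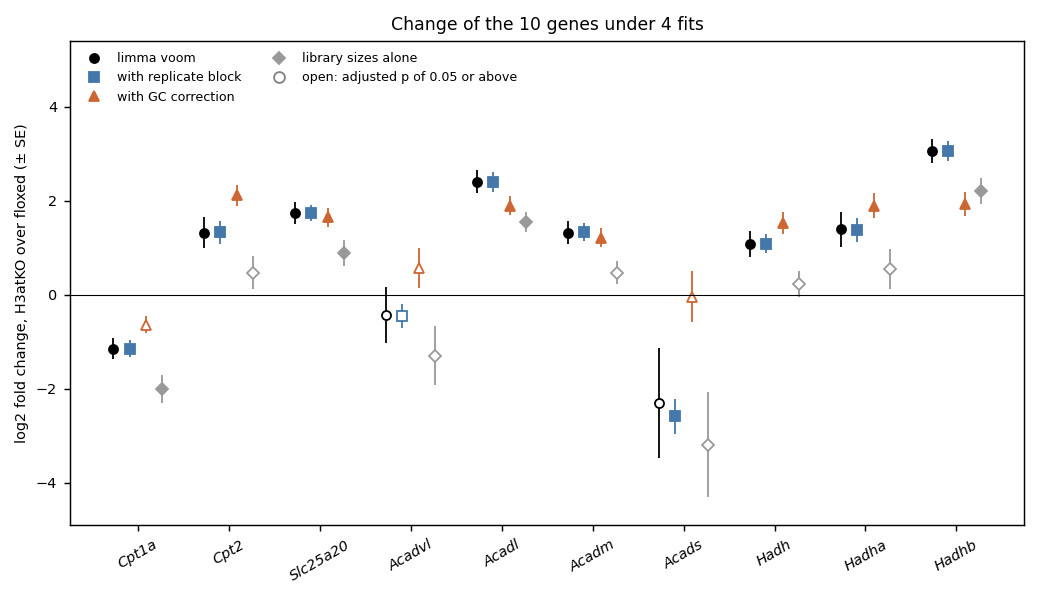
Log2 fold change of H3atKO over floxed (± SE) for each gene under limma voom, with the replicate number as a block, with GC correction and with library sizes alone. Open symbols have an adjusted p of 0.05 or above. *Slc25a20*, *Acadl* and *Hadhb* are filled under all 4 fits, whereas the GC-corrected values of *Acadvl*, *Acads* and *Cpt1a* are open.

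GC content ordered the fold changes. Across all genes Spearman's rho between GC content of the longest transcript and log2 fold change was −0.71, and across the 10 genes it was −0.81, given as a description because the genes share the same 6 libraries. Genes of the lowest decile of GC content had a median log2 fold change of 1.13 and those of the highest decile −2.19. Set against the genes of their own decile, the 7 genes that rose lay above the upper quartile. *Cpt1a* (−1.15), *Acadvl* (−0.44) and *Acads* (−2.30) lay between the quartiles of theirs, whose medians were −0.66, −1.02 and −2.19. With the GC correction 7 of the 10 were called higher and 0 lower, where 5.39% and 3.11% of all genes were. The counts were the same with the block added, where 13.0% and 9.87% of all genes were called. The 7 H3atKO groups still lay wholly above floxed after the correction, as did 19.7% of all genes, and *Cpt1a* still lay wholly below, as did 19.3%.

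**Figure D3:**
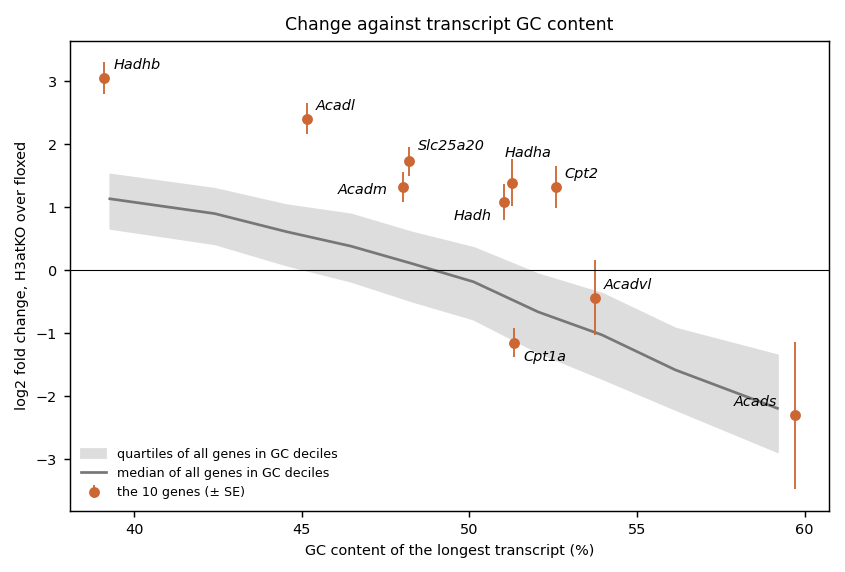
Log2 fold change (H3atKO over floxed, ± SE) of the 10 genes against the GC content in percent of their longest transcript, with the median (line) and quartiles (band) of all genes in deciles of GC content. The line descends from 1.13 to −2.19, and the 7 genes that rose lie above the band while *Cpt1a*, *Acadvl* and *Acads* lie within it.

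Levels were compared between genes as cpm per kb of merged exons. *Acadl* was the most abundant of the 10 in both genotypes, at 205 ± 14.7 in floxed and 1095 ± 197 in H3atKO pools, and *Acadm* came next at 84.7 and 210.4. In floxed pools *Acadvl* (55.3), *Hadh* (44.0) and *Cpt2* (40.8) followed with overlapping ranges. *Hadha* (23.0) lay below every pool of *Cpt2*. *Acads* (17.3), *Hadhb* (16.5) and *Slc25a20* (15.8) came next, and from *Hadha* on each overlapped the next, with *Acads* spread most widely (2.77 to 34.8). *Cpt1a* was the lowest at 11.9, below every pool of *Slc25a20*. In H3atKO pools *Hadhb* came after *Acadm* at 134, followed by *Cpt2* (102), *Hadh* (92.5), *Hadha* (64.3), *Slc25a20* (52.0) and *Acadvl* (45.7), each overlapping the next in this order. *Cpt1a* (5.39) and *Acads* (2.57) stood below these without overlap.

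*Acadl* made up 39.9% of the summed per-kb level of the 10 genes in floxed and 60.7% in H3atKO pools. *Hadhb* went from 3.21% to 7.43%, *Acadvl* from 10.7% to 2.53% and *Acads* from 3.36% to 0.143%. With the length of the longest coding transcript in place of merged exons, a choice made after the data were seen, *Acadl* was again first in both genotypes (27.0% and 42.6%), and *Hadhb* went from 6.67% to 16.04%. *Hadhb* then ranked 5 in floxed and 2 in H3atKO pools, and *Acads* was the lowest in both.

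**Figure D4:**
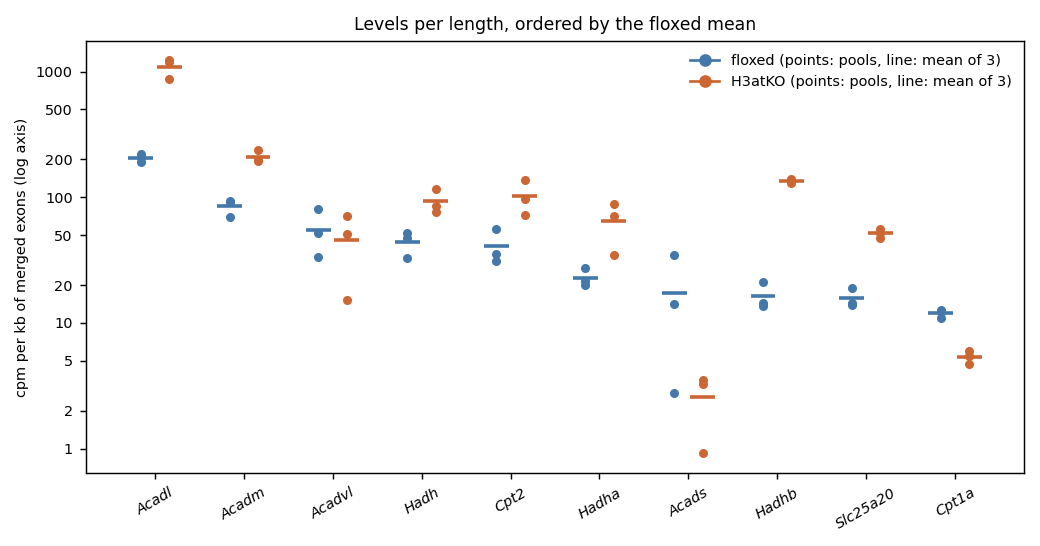
Level of the 10 genes in cpm per kb of merged exons (log axis), ordered by the floxed mean, with points for pools and lines for means of 3. *Acadl* is highest in both genotypes (205 and 1095), and *Hadhb* moves from 16.5 to 134.

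Ratios within a pool need no scaling between libraries. The log2 ratio of *Hadhb* to *Hadha* per kb was −0.93, −0.65 and 0.09 in the floxed and 0.57, 0.98 and 1.93 in the H3atKO pools. It was higher in every H3atKO pool, by 1.66 on average. The difference was 0.03 after correction by the GC content of the longest transcript and 0.68 by that of the longest coding transcript, a choice made after the data were seen. The ratio of the long-chain to the very-long-chain dehydrogenase (*Acadl* to *Acadvl*) was 1.36, 1.86 and 2.73 in the floxed and 3.61, 4.59 and 6.30 in the H3atKO pools. The difference of means was 2.85, and 1.34 after GC correction.

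The ratio of *Acadm* to *Acads* was 1.42, 2.69 and 4.64 in the floxed and 5.80, 6.17 and 7.75 in the H3atKO pools, a difference of 3.66, and of 1.27 after GC correction. The ratio of *Cpt2* to *Cpt1a* was 2.19, 1.48 and 1.52 in the floxed and 4.03, 4.86 and 3.72 in the H3atKO pools. Its difference of 2.47 was 2.75 after GC correction. Of the 4 ratios, *Cpt2* to *Cpt1a* was the one whose difference the GC correction did not lower. These genes have nearly the same GC content (52.6% and 51.3%), whereas the genes of the other pairs differ more. The correction could therefore change this ratio little, and its result does not set the pair apart.

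**Figure D5:**
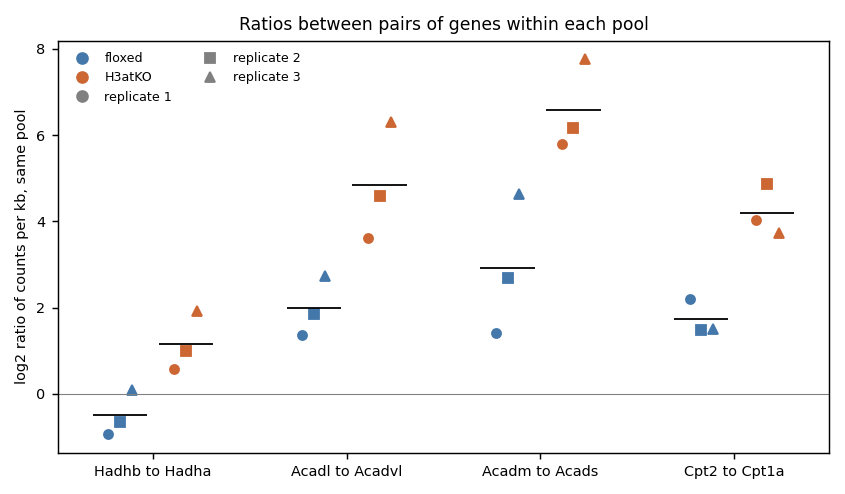
Log2 ratio of counts per kb of 4 pairs of genes within each pool, with lines for the means of 3 (floxed and H3atKO by colour, replicate number by shape). All H3atKO pools lie above all floxed pools in each pair. The *Hadhb* to *Hadha* means are −0.49 and 1.16.

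The genes around the core path were counted by lists. Of 6 tested genes of carnitine handling and fatty acid entry, 1 rose and 1 fell, where 9.42% of all genes rose and 7.07% fell. *Acsl1*, which activates long-chain fatty acids, went from 2329, 1574 and 1951 to 4818, 8832 and 6212 cpm (log2 fold change 1.74 ± 0.31, limma adjusted p = 0.0224). *Cpt1c*, the brain-type CPT1 gene, went from 4.52, 2.83 and 3.59 to 0.699, 0.357 and 0.253 cpm (−3.02 ± 0.61, adjusted p = 0.0276). The groups did not overlap for either, and neither passed after GC correction, but with the GC content of the coding transcript *Acsl1* did (1.66). *Acacb*, which makes the CPT1 inhibitor malonyl-CoA, and *Mlycd*, which breaks it down, were called higher only in the fits with a GC correction. Their values were 2.28 and 1.86 with the correction and no block, and 0.57 and −0.32 uncorrected, with overlapping groups. *Cpt1b*, the muscle-type isoform, had counts of 15, 6 and 2 in the floxed and 1, 1 and 1 in the H3atKO pools and did not pass the filter. In GENCODE M21, 81.4% of its exon bases lie under a read-through gene model on the same strand, which would leave such reads uncounted. Its level is therefore uncertain, and all CPT1 statements here concern *Cpt1a* and *Cpt1c*. By qPCR the paper reported higher *Cpt1b* expression in H3atKO IngWAT.

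Among 10 other genes listed here as matrix enzymes 2 rose and 0 fell, where 9.42% of all genes rose and 7.07% fell. The place of their products in the cell was not tested. With the replicate block, which called 28.7% of all genes lower, 4 fell (*Acad10*, *Acad12*, *Acaa2* and *Eci1*). *Decr1*, the 2,4-dienoyl-CoA reductase for unsaturated chains, went from 207, 249 and 243 to 947, 1250.4 and 823 cpm, a log2 fold change of 2.09 ± 0.25 (limma adjusted p = 0.00946), and it passed after GC correction as well (1.49). *Acad11*, an acyl-CoA dehydrogenase family member, went from 326, 260.1 and 192 to 629, 1110 and 856 cpm (1.73 ± 0.31, adjusted p = 0.0225), and did not pass after GC correction (0.82) but did with the GC content of the coding transcript (1.53). In the fit that joined block and GC correction *Acad10* (−0.35), *Acad12* (−0.06), *Acaa2* (0.09) and *Eci1* (0.45) were not called. *Decr1* and *Acad11* were higher in every H3atKO pool.

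Of the 3 electron transfer genes, which take electrons from the acyl-CoA dehydrogenases to the respiratory chain, 2 rose and 0 fell. In this fit 9.42% of all genes rose and 7.07% fell. *Etfb* was called lower with the block, by edgeR and by DESeq2, but its value of −0.32 in a fit that joined block and GC correction did not pass. Of its exon bases 58.2% lie under other genes on the same strand in GENCODE M21, so its level is uncertain. *Etfdh*, which passes them on to ubiquinone, went from 120.1, 113 and 141 to 681, 769 and 636 cpm (2.48 ± 0.22, limma adjusted p = 0.00793), and to 1.79 on the log2 scale after GC correction. *Etfa*, a subunit of the electron transfer flavoprotein, went from 364, 391 and 374 to 728, 959 and 581 cpm (0.97 ± 0.26, adjusted p = 0.0437). *Etfdh* kept its call after GC correction and *Etfa* did not (0.45).

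Among the ketone body genes, *Acat1*, the mitochondrial acetoacetyl-CoA thiolase, was called higher, with a log2 fold change of 0.95 ± 0.25 (limma adjusted p = 0.0435). The GC-corrected value of 0.48 did not pass. *Oxct1*, which activates ketone bodies for use, was called higher with the block and by DESeq2.

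Of 8 regulators 2 rose and 0 fell, where 9.42% of all genes rose and 7.07% fell. With the block, which called 24.8% of all genes higher and 28.7% lower, *Ppargc1a* also rose, and *Ppard*, *Esrra* and *Sirt3* fell. DESeq2 called the same 4 genes in the same directions, and edgeR called all of them but *Esrra*. Of these 4, *Ppard* (−1.85, limma adjusted p = 0.0498) and *Sirt3* (−2.32) were still called after the GC correction was added to the block. Neither was called with the GC correction alone (−1.44 and −2.19) or by the GC content of the coding transcript (0.10 and −0.90). *Ppara*, the nuclear receptor that activates this pathway, went from 6.23, 4.59 and 5.83 to 25.6, 30.8 and 14.2 cpm (2.05 ± 0.39, limma adjusted p = 0.0248), and the GC-corrected value of 2.59 also passed. *Esrrg* went from 0.855, 1.25 and 0.559 to 3.42, 5.86 and 6.70 cpm (2.57 ± 0.51, adjusted p = 0.0269), and did not pass after GC correction (1.71). *Ppargc1b* passed only in the fits with a GC correction, with or without the block (2.04 without it, from 0.12 uncorrected). Its groups overlapped at a low level, with 4.96, 1.01 and 0.826 cpm in the floxed and 1.98, 2.50 and 1.01 cpm in the H3atKO pools. The uncorrected value was −0.31 with edgeR, −0.23 with DESeq2 and −0.21 with the block.

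The peroxisomal path, which shortens very long chains, had 4 of 13 tested genes higher and 0 lower, where 9.42% and 7.07% of all genes were. With the block, which called 24.8% of all genes higher and 28.7% lower, 7 were higher, *Hsd17b4*, *Acaa1b* and *Crot* among them. In the same fit 3 were lower, *Acaa1a* and *Ech1* among them. DESeq2 also called each of these named genes but *Hsd17b4*, and edgeR called *Crot* and *Ech1*. With the GC correction added to the block, *Acaa1b* and *Ech1* were called and *Hsd17b4*, *Crot* and *Acaa1a* were not. *Ehhadh*, a bifunctional enzyme of this path, went from 142, 64.0 and 135 to 4675, 3313 and 2812 cpm, a log2 fold change of 5.03 ± 0.38 (limma adjusted p = 0.00615). *Abcd3* (2.20), a fatty acid transporter, and *Scp2* (1.77), which holds a thiolase, had adjusted p of 0.00899 and 0.0117 in the same fit. These 3 named genes passed after GC correction, as did *Acaa1b* (4.34, from 2.19 uncorrected). *Acaa1a* and *Acaa1b* are close copies, so their counts are uncertain where reads fit both. *Ehhadh* was the one named gene of these lists called in all 6 fits that left out a pool. Without floxed replicate 2 none of the other called genes named here was called, without floxed replicate 3 all were, and each of the other 4 fits lost some.

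For the acyl-CoA dehydrogenases, the genes with the most similar pattern were taken as those of highest Pearson r over the 6 pools, among 6870 genes with a mean of at least 16 cpm. For *Acadl* they were *Mpc2* (r = 0.998), *Slc25a17* (0.998) and *Me1* (0.998), and for *Acadm* they included *Timm17a* (0.994) and *Cyb5b* (0.989). These 5 genes rose. For *Acadvl* they were *Tmbim1* (0.996), *Jun* (0.993) and *Nploc4* (0.988), and for *Acads* they were *March2* (0.998), *Ndufa8* (0.997) and *Dnajb12* (0.997), none of which was called. With the replicate block *March2*, *Ndufa8* and *Dnajb12* were called lower, as was *Acads*, and DESeq2 called *Ndufa8* lower. With 6 points that share the genotype contrast, such values of r are descriptions. The genes were picked for following the dehydrogenases over the same pools, so their calls, or the lack of them, are no separate result.

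Markers of other cell types were measured in the same pools. The summed level of 8 brown or beige markers (*Ucp1*, *Cidea*, *Dio2* and others, of which *Ppargc1a* is also among the regulators) was 39.8 to 96.6 cpm in floxed and 340 to 1171 cpm in H3atKO pools, with 3 of the 8 called higher. The 5 endothelial markers summed to 531 to 895 cpm in floxed and 389 to 521 cpm in H3atKO pools, with 2 called lower. For both lists the exact permutation p was 0.1, the smallest that 3 pools against 3 allow (0.5 after adjustment over 10 lists), and their part in the changes was not tested. The sums of the other 8 lists overlapped between genotypes, with 2 of 6 macrophage markers, 1 stromal progenitor marker and 1 erythroid marker called lower and no other marker of these lists called. The adipocyte markers had a median log2 fold change of −1.49, with 0 of 7 called. No marker was at 0 in all pools. The sum of 9 skeletal muscle markers ran from 680 to 2833 cpm in floxed and from 2.91 to 3566 cpm in H3atKO pools. In H3atKO replicate 3, where it was lowest, the 7 genes that rose lay above every floxed pool, and *Cpt2*, *Slc25a20* and *Hadha* were at the lowest level of their group. In H3atKO replicate 2, where it was highest, *Acadl*, *Acadm*, *Cpt2*, *Hadh* and *Hadhb* were at their highest. The part of muscle RNA in the changes was not tested.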

How the data were processed

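RNA-seq was made from 3 pools per genotype, and groups and replicate numbers came from the sample labels. The authors prepared stranded poly(A) libraries, trimmed reads with cutadapt 1.3, aligned these to GRCm38 by STAR 2.4.2a with counting on Ensembl genes by HTSeq 0.6.1 (versions per the submitters' processing notes). They deposited 1 file per sample with raw counts for 46517 genes, neither filtered nor normalized. The last 5 lines of each file tally reads given to no gene (37.3% to 51.7% of the alignments) and were left out of library sizes and tests. Reads with several places in the genome are in those tallies, so genes with near copies are undercounted.

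As in the published methods, the filter kept the 14967 genes that reached 1 cpm in 1 or more samples. Libraries were scaled by TMM in edgeR 4.0.16 and compared by limma 3.58.1 (voom, genotype as the one term) in R 4.3.3. A call needed an adjusted p under 0.05 (Benjamini-Hochberg, over all genes tested). Positions, exon lengths and GC content came from GENCODE M21, in which 46005 identifiers matched. For the GC correction a robust loess curve (span 0.3) of each sample's deviations on GC content was subtracted before the fit. The scripts were tested on simulated counts.

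Alternatives were edgeR's quasi-likelihood test, DESeq2 1.42.0, library sizes alone, DESeq2 size factors, no filter, at least 10 counts in every sample, leaving out genes of the mitochondrial genome, a replicate block, the GC correction alone and with the block, and leaving out each sample. GC content and length by the longest coding transcript were added after the data had been seen. Same-numbered samples deviated together from their group means (r = 0.510, 0.389 and 0.264), which is where the pairing comes from, since the labels give the numbers without saying what they share. The depth given per sample covers counting error only, as PCR copies were not marked.

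Named genes were the 10 members, each gene of 6 related lists that was called, the 3 genes most like each of 4 dehydrogenases, and *Hdac3*. *Cpt1b* was named in addition, after its values were seen. So were list genes not called in the main limma fit but called with the block or the GC correction, some of them also by edgeR or DESeq2. The members and lists were chosen with earlier results of these data known, so no list of pathway genes was given a p. Some results for genes of these lists are not reported here.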

Additional observations from a re-analysis of the deposited data

Results flagged for a closer look

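Alignments with more than 1 place, which enter no gene's count, came to 44.7% ± 0.849 (SD, n = 3) of all alignments on record in the H3atKO pools and 31.0% ± 3.68 in the floxed pools. This is a signal outside the gene counts, at a higher level than in the controls in each of the 3 H3atKO pools. The tally is of alignments, of which a read has several. How many of these alignments belong to the 10 fatty acid oxidation genes was not tested.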

How the results depend on the processing

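Of the whole table, limma called 1410 genes higher and 1058 lower. The counts were 2749 lower with edgeR, 2935 higher and 3465 lower with DESeq2, 306 and 5666 with library sizes alone, 1864 lower with a minimum of 10 counts per sample, 807 and 465 after GC correction, and 795 and 469 with GC content of the coding transcript. With the replicate block they were 3717 and 4290. Of the 10 genes, 2 were called lower with DESeq2 and with the block, 0 under each of the 3 GC corrections (the one with the block included), and 3 and 4 were called higher with library sizes alone (median log2 fold change 0.47) and with no filter. The block changed no call of the 10 genes but that of *Acads*. Leaving out a sample gave 1 to 2729 genes higher and 0 to 3828 lower, 0 to 7 of the 10 genes higher and 0 to 2 lower, and medians of 1.11 to 1.46.

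The direction turned for *Acadvl* and for genes of like pattern, none of which was called in the limma fit. After GC correction, GC correction with the block and GC correction by coding transcript the log2 fold changes were 0.56, 0.55 and 0.50 for *Acadvl*, 0.50, 0.49 and 0.40 for *Tmbim1*, 1.31, 1.35 and 1.26 for *Jun*, and 0.65, 0.65 and 0.56 for *Nploc4*, and 0.015 for *Dnajb12* under the first. Leaving out a sample gave −0.90 to 0.22 for *Acadvl*, −0.61 to 0.14 for *Tmbim1*, −0.38 to 0.22 for *Jun* and −0.47 to 0.079 for *Nploc4*, above 0 without H3atKO replicate 3 and, for *Jun*, also without floxed replicate 1 (0.059). The cause was not tested. DESeq2 size factors and leaving out the genes of the mitochondrial genome moved none of these counts by over 1.5 times. With 3 pools per genotype, the calls of *Cpt1a*, *Cpt2*, *Acadm*, *Hadh* and *Hadha* were lost in 5 of the 6 fits that left out a pool.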
